A study of Mus musculus with 42 samples.

Results

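The 26S proteasome is described here through 41 of the 13809 genes measured in tibialis anterior (TA) muscle, chosen by symbol and not by their values. They comprise the 20S alpha ring (Psma1 to Psma7), the constitutive 20S beta ring (Psmb1 to Psmb7), the immunoproteasome subunits (Psmb8, Psmb9 and Psmb10), the 19S base (Psmc1 to Psmc6, Psmd1, Psmd2 and Psmd4) and the 19S lid (Psmd3, Psmd6, Psmd7, Psmd8, Psmd11, Psmd12, Psmd13 and Psmd14). To these were added the activators Psme1 to Psme4 and 3 chaperones of base assembly that carry a Psmd symbol, Psmd5, Psmd9 and Psmd10. All 41 passed the filter on low values. RNAseq was done on TA muscles of male mice aged 4 months, in 42 libraries that the labels place in set 1 (22 libraries) or set 2 (20 libraries). The study's methods name the C57BL/6J background for the Sesn1SkM-Tg line, and name none for the Sesn2SkM-Tg or Sesn1KO mice. Set 1 holds WT, Sesn1SkM-Tg and Sesn2SkM-Tg mice and set 2 holds WT and Sesn1KO mice, each in the basal state, which means muscle of mice without treatment, or after immobilization, in which the right hindlimb was fixed to rigid plastic sticks with an adhesive bandage. Set 2 also holds denervated WT muscle, in which a segment of the sciatic nerve of the right leg had been removed. The study places the immobilized RNAseq samples at the third day, and the day of the denervated ones is not given in the sources used here. A group has 4 libraries, save the immobilized muscles of WT mice in set 1 and of Sesn1SkM-Tg mice, with 3 each.

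Both transgenes act in muscle. Sesn1SkM-Tg mice express human Sesn1 from the muscle creatine kinase (MCK) promoter, and Sesn2SkM-Tg mice express Sesn2 from a promoter under the control of a tetracycline transactivator that is itself driven by MCK, whereas Sesn1KO mice are deficient in Sesn1. The libraries hold no denervated muscle of the transgenic or Sesn1KO mice. Sestrins, the proteins these genes encode, are stress-induced proteins that restrain mTORC1 signalling, and the study asked how they act on muscle that loses mass through disuse.

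The proteasome degrades proteins tagged with ubiquitin and carries out much of the protein breakdown of an atrophying muscle. Its 20S core is a barrel of alpha and beta rings in which Psmb5, Psmb6 and Psmb7 carry the catalytic sites, and the 19S particle recognises, unfolds and deubiquitinates substrates, the base by its ring of ATPases (Psmc1 to Psmc6) and the lid by the deubiquitinase Psmd14. Interferon-gamma induces Psmb8, Psmb9 and Psmb10, which take the places of Psmb5, Psmb6 and Psmb7 in new particles and change which peptides reach MHC class I molecules. It also induces Psme1 and Psme2, the subunits of the 11S cap, while Psme3 forms a nuclear cap and Psme4 encodes PA200, a large single-chain cap.

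Genes of the constitutive proteasome are activated by Nfe2l1 and Nfe2l2, which bind with small Maf proteins to the antioxidant response element, searched here as TGACNNNGC. Interferon-gamma acts through the gamma-activated site, searched as TTCNNNGAA, and through the interferon-stimulated response element, searched as GAAA, any 2 bases and GAAA. Both strands of the 300 bases from 250 before to 50 after each start site were searched in the RefSeq promoters of assembly GRCm38.p6, in which 35 of the 41 members were matched. The antioxidant response element was found in 4 of 25 constitutive members (16%), against 13.99% of all 27025 genes with a promoter, and also in Psmd9 and Psme4. It was found in 0 of the 3 immunoproteasome promoters. The gamma-activated site was found in Psmb8 and Psmd2 (9.55% of all these genes) and the interferon-stimulated response element in Psme1, Psmb3, Psmd4 and Psmd9 (3.99% of all). The windows are shown for the 4 constitutive members and for the interferon-induced Psmb8 and Psme1, each on the strand of its gene with the motif in capitals. None of the 3 letter patterns is a measurement of binding.
Psmb5: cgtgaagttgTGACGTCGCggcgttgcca
Psmb6: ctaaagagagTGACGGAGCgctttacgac
Psmc6: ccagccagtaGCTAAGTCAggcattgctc
Psmd12: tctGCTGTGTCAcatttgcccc
Psmb8: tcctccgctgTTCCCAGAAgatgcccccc
Psme1: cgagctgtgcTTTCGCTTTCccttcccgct
The Psmb5 window lies at chr14:54618024-54618052 on the minus strand, with the first base of the motif 47 bases before the start site. That of Psmb6 lies at chr11:70525338-70525366 on the plus strand, 9 bases before. Those of Psmc6 (chr14:45329587-45329615) and Psmd12 (chr11:107479278-107479299) are on the plus strand, 227 and 247 bases before the start site, and both hold the motif on the other strand. The Psmb8 window lies at chr17:34198088-34198116 on the plus strand, 97 bases before the start site, and that of Psme1 at chr14:55578493-55578522 on the plus strand, 9 bases after it, with the motif on the other strand. Among other promoter motifs, the CCAAT box (CCAAT) was present in 10 of 25 constitutive members (40%, against 41.1% of all genes with a promoter). The GC box (GGGCGG) was present in 15 of 25 (60%, against 38.2%).

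The values are the authors' normalized counts, linear and close in scale to CPM, with library sums from 722430 to 1276769. As read numbers are unknown, no counting error can be given. Changes are log2 fold changes of value + 1 from limma with their SE, which understates the change of genes with low values, and a member is called when its adjusted p is under 0.05 and its log2 fold change is 0.25 or more in size. The labels do not say that libraries come from separate mice, so the p-values measure the spread between libraries. The genotype labels were checked first. Sesn1 was 41.6 to 77.6 in basal Sesn1SkM-Tg muscle against 15.0 to 22.1 in WT muscle, and 8.41 to 10.05 in basal Sesn1KO muscle against 22.5 to 29.7 in WT muscle of set 2. In immobilized Sesn1KO muscle, however, Sesn1 was 19.4 to 37.3, overlapping the 30.7 to 53.1 of immobilized WT muscle, and therefore the library labels were followed without a check by this gene. Sesn2 was 6.54 to 13.0 in basal Sesn2SkM-Tg muscle against 2.18 to 3.39 in WT muscle. Replicate 4 of basal WT muscle in set 1 stood apart from the other 3 libraries of its group in several members (Psme1 53.4 against 23.8 to 24.9, Psme4 167 against 500.3 to 638), as did replicate 2 of basal Sesn2SkM-Tg muscle (Psmb5 164 against 97.4 to 108). Markers of muscle fibers, 8 genes, summed to 144017 to 159980 in basal WT muscle of set 2, to 130177 to 137664 after immobilization and to 56472 to 75401 after denervation. As these are whole muscles, fewer cells of a type and less RNA per cell cannot be told apart.

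In basal WT muscle of set 2, the levels of the members per kb of their principal transcript spanned from 2.70 ± 0.92 (SD, n = 4) for Psmb9 to 164 ± 11.2 for Psmb7. Constitutive beta subunits had the highest median level per kb (88.6), followed by the 19S base (67.6), the alpha ring (55.7), the lid (49.6), the activators (25.6), the base chaperones (5.54) and the immunoproteasome (4.26). The 3 immunoproteasome subunits were thus rare transcripts beside the subunits they replace: the level per kb of Psmb8 was 4.70% ± 2.16 of that of Psmb5, that of Psmb9 was 2.32% ± 0.90 of that of Psmb6, and that of Psmb10 was 4.28% ± 0.32 of that of Psmb7 (SD, n = 4). The order among the constitutive subunits depends on which transcript sets the length, because over the union of all annotated exons Psmb5 ranks first and not Psmb7.

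Denervation raised all 31 constitutive subunits of the 20S core, base and lid. The alpha and beta rings, the base and the lid had median log2 fold changes of 1.07, 0.98, 1.08 and 1.07, whereas the 3 immunoproteasome subunits and Psme1 fell. In all, 35 of the 41 members rose and 4 fell, where 27.8% of all genes tested were called higher and 27.7% lower (55.5% in either direction), and the median of all genes was -0.03. Libraries of denervated muscle all lay above the 4 basal libraries for 34 members, among them 31 of 31 constitutive subunits, against 27.4% of all genes.

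**Figure D1:**
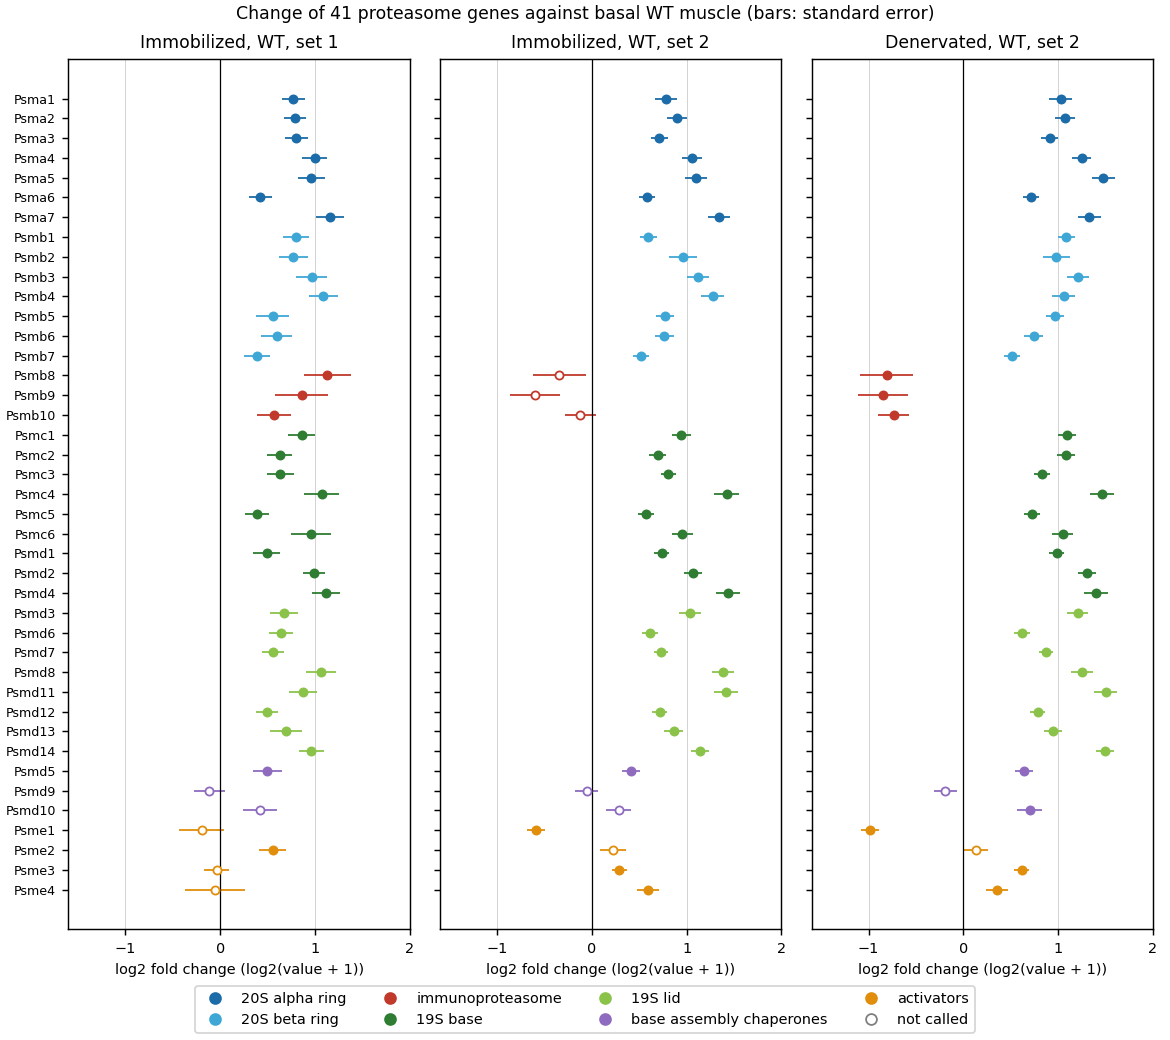
Log2 fold change of value + 1 (horizontal axis) of each of the 41 members (rows, coloured by subcomplex) against basal WT muscle, in immobilized WT muscle of set 1, immobilized WT muscle of set 2 and denervated WT muscle of set 2, with bars of 1 SE and open points for members not called. All 31 constitutive subunits are filled and right of 0 in every panel, whereas Psmb8, Psmb9 and Psmb10 lie right of 0 in the first panel and left of 0 in the others.

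In the alpha ring, which gates entry to the core, the largest rise was that of Psma5. Its values in basal WT muscle were 37.6, 37.9, 33.9 and 45.7, in immobilized muscle 79.1, 99.9, 92.1 and 67.1, and in denervated muscle 98.0, 107, 111 and 121. All treated libraries lay above all basal ones, the treated groups overlapped only in that the highest immobilized library exceeded the lowest denervated one, and the log2 fold change after denervation was 1.48 ± 0.12 (SE, adjusted p = 1.29e-09). Psma7, a further ring subunit, was 70.8, 72.3, 59.9 and 73.3 in basal, 169.6, 215, 188 and 139.7 in immobilized and 164, 172, 176 and 186 in denervated muscle. Its immobilized and denervated libraries overlapped and both lay above every basal library, with log2 changes of 1.34 ± 0.12 (adjusted p = 4.92e-08) and 1.33 ± 0.12 (adjusted p = 6.7e-09). Psma6 had the smallest rise of the ring after denervation, 0.71 ± 0.08 (adjusted p = 2.98e-07).

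After denervation the 3 catalytic beta subunits had the smallest log2 fold changes of the 7 constitutive beta subunits. Psmb5, the chymotrypsin-like subunit, was 85.0, 79.9, 77.9 and 88.8 in basal, 141, 163, 146 and 121 in immobilized and 165, 168, 160.2 and 157 in denervated WT muscle of set 2. For Psmb6, the caspase-like subunit, the values were 85.9, 97.4, 89.9 and 109 in basal, 151, 197, 172 and 135 in immobilized and 150.2, 159, 158 and 172 in denervated muscle. In both genes all treated libraries lay above all basal ones, with log2 fold changes after denervation of 0.96 ± 0.09 (adjusted p = 1.49e-08) and 0.74 ± 0.10 (adjusted p = 2.12e-06). Psmb7, the trypsin-like subunit, was 181, 199.6, 177 and 202 in basal, 275, 308, 287 and 226 in immobilized and 247, 274, 285 and 275 in denervated muscle. Its rise of 0.51 ± 0.08 (adjusted p = 2.83e-05) was the smallest of the 31 constitutive subunits, although again no treated library fell to the basal range. Among the non-catalytic beta subunits, Psmb3 was 65.6, 67.0, 68.7 and 70.3 in basal, 143, 187, 157 and 116 in immobilized and 146, 166, 152 and 171 in denervated muscle, a log2 fold change of 1.21 ± 0.12 after denervation (adjusted p = 1.93e-08). For Psmb4 the values were 88.1, 92.6, 89.3 and 99.5 in basal, 187, 301, 250.1 and 181 in immobilized and 187, 183, 198 and 206 in denervated muscle. Psmb4 thus showed its highest library after immobilization, and its log2 changes were 1.28 ± 0.12 (adjusted p = 1.39e-07) and 1.06 ± 0.12 (adjusted p = 2.68e-07). After immobilization in set 2, however, the non-catalytic Psmb1 (0.60) changed less than Psmb5 (0.77), and the order of the subunits was not itself tested.

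All 9 genes of the 19S base rose after denervation, led by the ATPase Psmc4 and the ubiquitin receptor Psmd4. Psmc4 was 60.5, 58.9, 58.1 and 65.1 in basal, 163, 208, 176 and 121 in immobilized and 151, 170.3, 179 and 176 in denervated muscle, a log2 fold change of 1.46 ± 0.13 after denervation (adjusted p = 4.54e-09). Psmd4 was 98.1, 98.5, 91.3 and 115 in basal, 274, 322, 297 and 212 in immobilized and 226, 267, 283 and 292 in denervated muscle, with log2 fold changes of 1.44 ± 0.12 and 1.40 ± 0.12 (adjusted p = 3.14e-08 and 5.55e-09). For both genes the treated groups overlapped each other and neither reached the basal range. Psmd2 and Psmd1, the scaffold subunits, rose by 1.303 and 0.98, and Psmc5 had the smallest rise of the base, 0.72 ± 0.09 (adjusted p = 4.54e-07).

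Of the 8 lid genes, Psmd11 and the deubiquitinase Psmd14 rose most after denervation. Psmd11 was 82.4, 76.9, 79.1 and 103 in basal, 229, 237, 248 and 199 in immobilized and 223, 243, 246 and 256 in denervated muscle, a log2 fold change of 1.4999 ± 0.12 (adjusted p = 1.88e-09). Psmd14 rose by 1.49 ± 0.10 (adjusted p = 5.86e-11). Psmd8, which had the largest change of the lid in immobilized Sesn2SkM-Tg muscle (1.49), was 163, 149, 143 and 207 in basal, 402, 495, 482 and 354 in immobilized and 362, 398, 384 and 426 in denervated WT muscle of set 2. Its treated libraries all lay above its basal ones, with log2 fold changes of 1.39 ± 0.12 and 1.25 ± 0.12 (adjusted p = 2.36e-08 and 1e-08). The smallest change of the lid was that of Psmd6, 0.61 ± 0.08 (adjusted p = 2.97e-06).

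Immobilization raised the alpha ring, beta ring, base and lid in both sets and in every genotype. In WT muscle of set 2, 34 members rose and 1, Psme1, fell (33.9% of all genes called, 16.2% higher and 17.7% lower), with medians of 0.89 for the alpha ring, 0.77 for the beta ring, 0.94 for the base and 0.95 for the lid, beside -0.02 for all genes. In WT muscle of set 1, 36 rose and 0 fell (29.3% of all genes, 14.9% higher), with medians of 0.80, 0.77, 0.86 and 0.68 beside 0.00 for all genes. When only these 2 groups were fitted, 27 rose, and Psma6, Psmb5, Psmb6, Psmb7, Psmb10, Psmc5, Psmd1, Psmd5 and Psme2 were not called (adjusted p from 0.0523 to 0.109). The share of all genes called in that fit is not given beside the 27. In Sesn1SkM-Tg muscle 31 rose and 0 fell (34.7% of all genes, 18.2% higher), with medians of 0.70, 0.58, 0.68 and 0.61 beside -0.01. The counts in Sesn2SkM-Tg muscle were 31 and 0 (30.7% of all genes, 15.0% higher), with medians of 0.92, 0.80, 0.83 and 0.81 beside 0.00. Sesn1KO muscle had 34 that rose and 1 that fell, again Psme1 (37.1% of all genes, 17.2% higher and 19.9% lower), with medians of 0.88, 0.76, 0.89 and 0.87 beside -0.03.

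Taking these 5 comparisons and denervation, the 31 constitutive subunits gave 181 calls of 186, all of them higher, and 27 were called in all 6. The calls that were missing were those of Psmb7, Psmc5, Psmd1 and Psmd7 in Sesn1SkM-Tg muscle and of Psmb7 in Sesn2SkM-Tg muscle, where it was 0.28 ± 0.13 (adjusted p = 0.0939). No member outside the constitutive subunits was called higher in all 6. The count in WT muscle of set 1 went from 36 to 26 without replicate 3 of the immobilized libraries, and stayed at 36 without replicate 4 of the basal ones.

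The subunits differed in the size of their change. Psma7 ranked between the largest and the sixth largest change of the 41 members in all 6 comparisons (1.06 to 1.34), and Psmc4 between the second and the fifth (1.05 to 1.46). Psmd4 (0.90 to 1.44) ranked first to seventh, whereas Psmb7 (0.28 to 0.54) ranked 32nd to 37th, Psmc5 (0.26 to 0.72) 28th to 37th and Psma6 (0.43 to 0.71) 26th to 34th. Across the 31 constitutive subunits, the log2 fold changes of immobilized WT muscle in set 1 and in set 2, which share no library, had a Pearson's r of 0.86 and a Spearman's rho of 0.86. Those of immobilized WT muscle in set 1 and denervated muscle in set 2 had an r of 0.81 and a rho of 0.81, and those of immobilized Sesn1KO muscle and denervated WT muscle an r of 0.80 and a rho of 0.86. These are descriptions across genes, which are not independent replicates. In WT muscle of set 1, Psma7 was 76.8, 64.9, 67.8 and 99.7 in basal and 144, 183 and 190.0 in immobilized muscle, and Psmb4 was 89.7, 79.9, 87.9 and 127 and 174, 225 and 210.2. In both genes basal replicate 4 lay highest of its group and still under every immobilized library, with log2 changes of 1.16 ± 0.15 (adjusted p = 3.27e-05) and 1.09 ± 0.15 (adjusted p = 5.27e-05). The base and lid genes Psmd4 and Psmd8 rose by 1.11 ± 0.15 (adjusted p = 3.27e-05) and 1.06 ± 0.16 (adjusted p = 0.000111), from basal values of 135, 122, 100.3 and 121 and of 236, 180.5, 154 and 204 to immobilized values of 219, 294 and 266 and of 374, 430.3 and 398. Among the catalytic subunits, Psmb5 was 94.7, 82.0, 83.9 and 132 in basal and 116, 163 and 150.3 in immobilized WT muscle of set 1, where basal replicate 4 lay above the lowest immobilized library (0.55 ± 0.18, adjusted p = 0.0243). Psmb6 was 99.6, 93.5, 89.9 and 135 in basal and 124, 179.8 and 171 in immobilized muscle (0.59 ± 0.16, adjusted p = 0.00947), and Psmb7 was 201, 182, 182 and 246 and 244, 285 and 263 (0.39 ± 0.14, adjusted p = 0.0373). In each of these 3 genes basal replicate 4 overlapped the immobilized libraries, and the calls were lost in some fits that left out a library. These were the fits without basal replicate 2 or 3 or immobilized replicate 2 or 3 for Psmb5 (adjusted p up to 0.109), without immobilized replicate 2 or 3 for Psmb6 (up to 0.0601), and without basal replicate 1, 2 or 3 or immobilized replicate 2 or 3 for Psmb7 (up to 0.132).

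**Figure D2:**
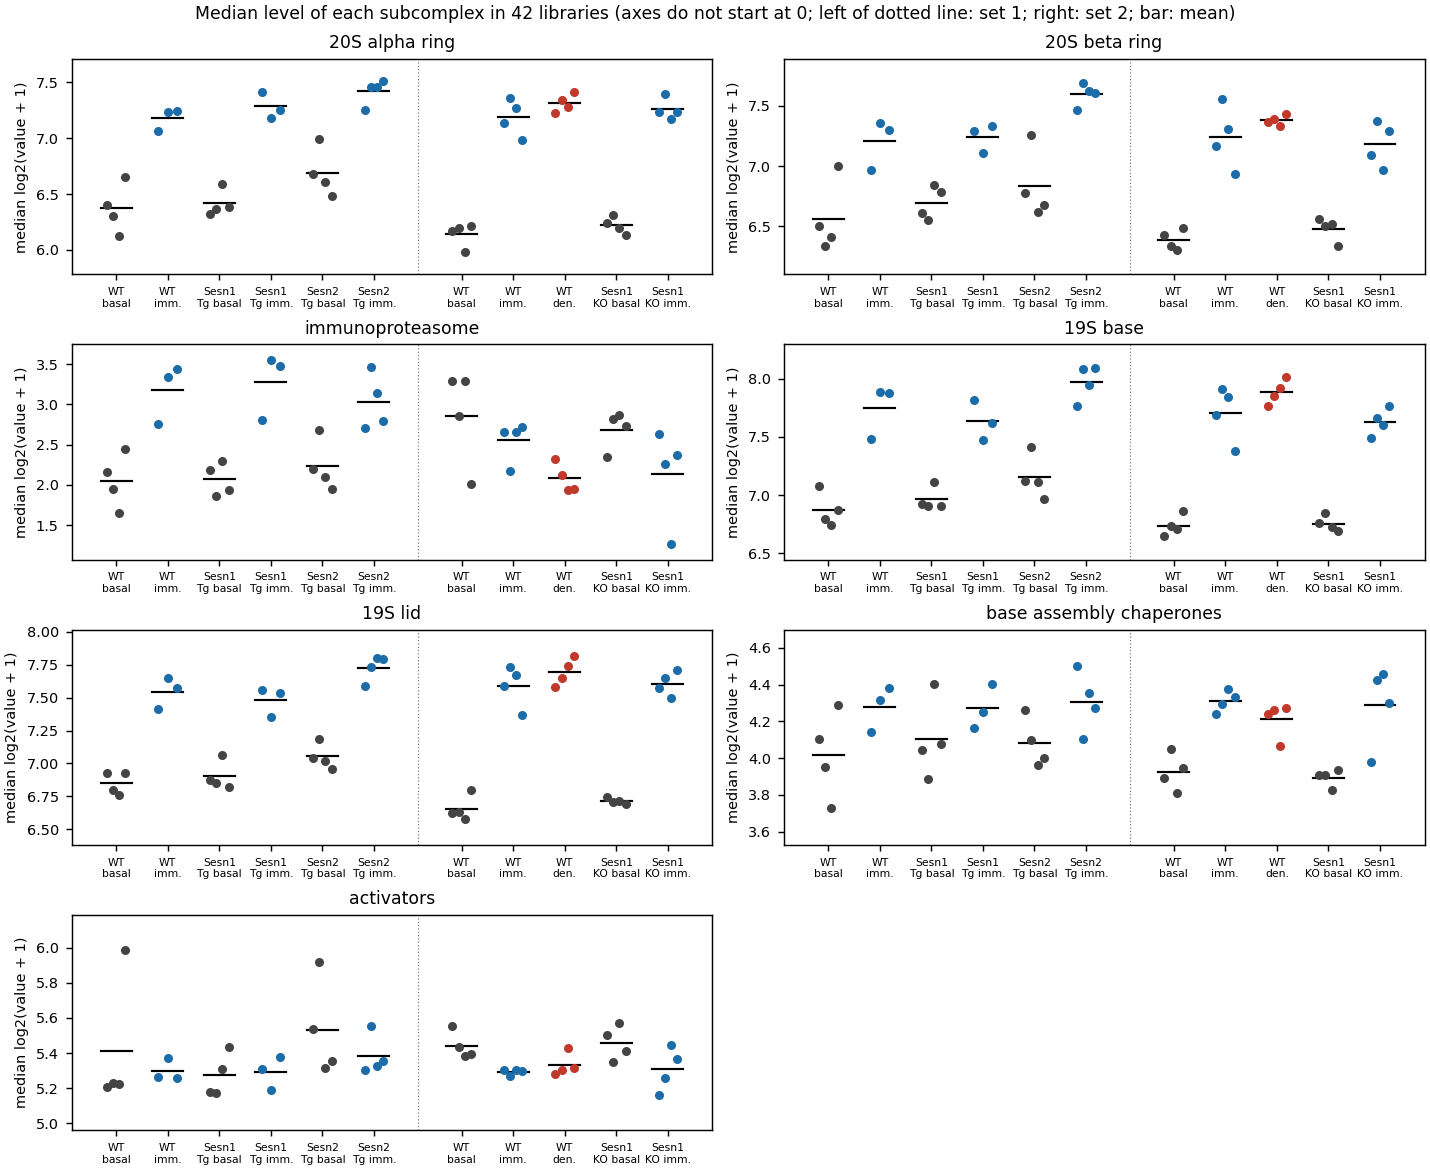
Median log2(value + 1) of the members of each subcomplex (vertical axes, which do not start at 0) in each of the 42 libraries (points), by group, with bars at the group mean and set 1 left of the dotted line. Basal libraries are dark grey, immobilized blue and denervated red. The alpha ring, beta ring, base and lid are higher in the treated groups of both sets, whereas the immunoproteasome is higher after immobilization in set 1 and lower after denervation in set 2.

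Subcomplexes also varied together between libraries of a group. After the group means were taken off, the median log2 values of the base and of the lid had a Pearson's r of 0.90 over the 20 libraries of set 2, and those of the alpha and beta rings an r of 0.84 in set 2 and 0.87 in set 1. The immunoproteasome and the alpha ring had an r of -0.25 in set 2 and 0.59 in set 1. All of these points share their libraries and their scaling, and the values are given as a description.

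Denervation and immobilization of WT muscle were then compared directly in set 2, where both had been set against the same 4 basal libraries. In this comparison 6 members were higher and 2 lower in denervated muscle, where 38.9% of all genes were called, 20.5% higher and 18.4% lower. The 6 were Psmb1 (0.49 ± 0.09, adjusted p = 0.000186), Psmd10 (0.42 ± 0.13, adjusted p = 0.0165), the ATPase Psmc2 (0.39 ± 0.09, adjusted p = 0.00178), Psma5 (0.38 ± 0.12, adjusted p = 0.0144), Psmd14 (0.35 ± 0.10, adjusted p = 0.00644) and Psme3 (0.33 ± 0.08, adjusted p = 0.00249). The 2 lower members were Psmb10 (-0.61 ± 0.17, adjusted p = 0.0054) and Psme1 (-0.40 ± 0.09, adjusted p = 0.00199). The median of the 31 constitutive subunits was 0.13, with 24 above 0, beside -0.02 for all genes. In the same comparison the 8 muscle fiber markers were all lower, and 4 of 10 leukocyte markers were lower (median -0.99). Their part in the members' values was not tested. The count depends on the scaling: with libraries rescaled to an equal sum, which moves the median of all genes to 0.26, 30 members were higher and 0 lower. Without replicate 2 of the immobilized libraries it was 13, Psma5 was lost without immobilized replicate 4 (0.27, adjusted p = 0.0672), and Psmd10 without denervated replicate 2 or 3 (adjusted p = 0.0502 and 0.0623). With a threshold of 0.5 on the size of the log2 fold change, only Psmb10 was called.

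All 3 immunoproteasome genes rose in immobilized WT and Sesn1SkM-Tg muscle of set 1, as Psmb8 did in Sesn2SkM-Tg muscle, and all 3 fell after denervation in set 2. None passed the test after immobilization in set 2. Psmb8 (chr17:34197721-34201454, plus strand) and Psmb9 (chr17:34181987-34187764, minus strand) lie in the MHC region. The peptide transporter gene Tap1 (chr17:34187553-34197225, plus strand) lies between them, and its exons overlap those of Psmb9 on the other strand. Psmb10 lies at chr8:105935735-105938444 (minus strand), and all positions are in GRCm38. Whether reads were assigned by strand is not given in the sources used here, so reads of Psmb9 and Tap1 in their shared bases cannot be told apart.

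Psmb8, which replaces Psmb5, was 3.49, 2.86, 2.14 and 4.46 in basal and 5.78, 9.16 and 9.86 in immobilized WT muscle of set 1. No libraries of these groups overlapped, and the log2 fold change was 1.13 ± 0.25 (adjusted p = 0.00229). In Sesn1SkM-Tg muscle the values were 3.53, 2.65, 3.91 and 2.82 in basal and 6.01, 10.7 and 11.8 in immobilized muscle, again without overlap (1.28 ± 0.25, adjusted p = 0.000716). In Sesn2SkM-Tg muscle they were 3.57, 5.42, 3.27 and 2.86 and 5.55, 10.3, 7.82 and 5.93, with all immobilized libraries above the highest basal one (0.81 ± 0.23, adjusted p = 0.0113). In set 2 the order was different. The basal WT libraries held 8.80, 6.23, 9.73 and 3.02, and the immobilized ones 5.33, 3.51, 5.31 and 5.59, within that range (-0.34 ± 0.28, adjusted p = 0.367). Denervated libraries held 4.02, 3.37, 2.84 and 2.85. Among the basal libraries only replicate 4 lay in the denervated range, and the log2 fold change was -0.81 ± 0.28 (adjusted p = 0.0169). In Sesn1KO muscle Psmb8 was 4.07, 6.04, 6.28 and 5.62 in basal and 5.20, 3.78, 1.39 and 4.20 in immobilized muscle (-0.56 ± 0.28, adjusted p = 0.121).

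Psmb9, which replaces Psmb6, was 1.82, 1.53, 0.924 and 2.22 in basal and 2.55, 4.97 and 3.81 in immobilized WT muscle of set 1, without overlap (0.86 ± 0.27, adjusted p = 0.0235). In set 2 it was 3.62, 4.29, 4.78 and 1.93 in basal, 2.46, 1.80, 0.874 and 3.29 in immobilized and 2.52, 1.67, 1.87 and 0.476 in denervated WT muscle. The treated groups spread widely and overlapped the basal one, with log2 changes of -0.60 ± 0.26 after immobilization (adjusted p = 0.0834) and -0.84 ± 0.26 after denervation (adjusted p = 0.00969). In Sesn1SkM-Tg muscle it rose from 1.58, 1.34, 2.24 and 1.71 in basal to 2.84, 4.83 and 4.91 in immobilized libraries, which do not overlap (0.92 ± 0.27, adjusted p = 0.0137). In Sesn2SkM-Tg muscle it was 0.941, 2.90, 1.00 and 1.95 in basal and 1.71, 3.27, 4.97 and 2.81 in immobilized libraries, which overlap (0.64 ± 0.25, adjusted p = 0.0614), and in Sesn1KO muscle, where basal libraries held 2.78, 2.29, 3.41 and 2.59 and immobilized ones 1.46, 2.06, 1.41 and 1.88, it was -0.48 ± 0.26 (adjusted p = 0.161), although these Sesn1KO groups did not overlap.

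Psmb10, which replaces Psmb7, was 5.18, 5.53, 7.45 and 9.20 in basal and 9.38, 10.6 and 11.2 in immobilized WT muscle of set 1 (0.56 ± 0.18, adjusted p = 0.0218). Here too every immobilized library lay above every basal one. In set 2 the basal libraries were tight, 9.39, 9.61, 8.83 and 8.80, the immobilized ones held 10.5, 7.36, 7.55 and 8.20, and the denervated ones 5.84, 3.66, 4.42 and 6.99. All denervated libraries lay below all basal and all immobilized ones, with a log2 fold change against basal muscle of -0.74 ± 0.17 (adjusted p = 0.000737), while immobilization gave -0.12 ± 0.17 (adjusted p = 0.613). In Sesn1SkM-Tg muscle Psmb10 was 5.88, 7.07, 5.44 and 6.78 in basal and 9.16, 11.8 and 10.2 in immobilized libraries, without overlap (0.64 ± 0.18, adjusted p = 0.00861). In Sesn2SkM-Tg muscle it was 7.41, 10.99, 6.30 and 7.44 and 10.5, 10.05, 11.6 and 9.99, groups that overlap (0.38 ± 0.17, adjusted p = 0.0904), and in Sesn1KO muscle 9.28, 8.73, 9.54 and 9.67 and 5.28, 8.64, 8.39 and 9.15, which overlap as well (-0.24 ± 0.17, adjusted p = 0.27).

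The falls after denervation depend on the scaling. With libraries rescaled to an equal sum, the median of all genes after denervation was 0.35, and Psmb8 was -0.43 (adjusted p = 0.209), Psmb9 -0.54 (adjusted p = 0.108) and Psmb10 -0.33 (adjusted p = 0.111), so that none of the 3 was called. Psmb8 was not called after denervation without basal replicate 1 (-0.68, adjusted p = 0.0621) or replicate 3 (-0.63, adjusted p = 0.0725), nor Psmb9 without denervated replicate 4 (-0.59, adjusted p = 0.0535), whereas Psmb10 was called in 8 of 8 fits that left out a library. The rises in set 1 had limits as well. With quantile normalization Psmb9 was 0.69 in WT (adjusted p = 0.0643) and 0.67 in Sesn1SkM-Tg muscle (adjusted p = 0.0647), and with only the compared groups Psmb10 was not called in WT muscle (adjusted p = 0.0796). In immobilized WT muscle of set 1, Psmb8 was called in 7 of 7 fits that left out a library. Psmb9 was lost there without basal replicate 3 or without immobilized replicate 2 or 3 (0.68 to 0.84, adjusted p up to 0.114), and Psmb10 without basal replicate 1 or 2 or immobilized replicate 2 or 3 (0.46 to 0.55, adjusted p up to 0.0978). In Sesn1SkM-Tg muscle Psmb9 was lost without immobilized replicate 2 or 3 (adjusted p = 0.0604 and 0.0724) and Psmb10 without replicate 2 (adjusted p = 0.0504), and in Sesn2SkM-Tg muscle Psmb8 was lost without immobilized replicate 2 (adjusted p = 0.0545). Conversely, in Sesn2SkM-Tg muscle Psmb9 and Psmb10 were called without basal replicate 2 (0.84 and 0.52), and Psmb9 also without immobilized replicate 1 (0.83). Psmb9 fell in immobilized WT muscle of set 2 without basal replicate 4 (-0.81, adjusted p = 0.0236) or immobilized replicate 4 (-0.78, adjusted p = 0.0318).

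Relative to the subunits they replace, the immunoproteasome genes had a higher mean after immobilization in set 1 and a lower mean after either treatment in set 2. Per kb, Psmb8 was 1.81% ± 0.28 of Psmb5 in basal and 3.16% ± 0.44 in immobilized WT muscle of set 1, and 4.70% ± 2.16 in basal, 1.958% ± 0.56 in immobilized and 1.11% ± 0.16 in denervated muscle of set 2 (SD, n = 4, or 3 in immobilized muscle of set 1). Psmb9 was 0.91% ± 0.21 of Psmb6 in basal and 1.39% ± 0.22 in immobilized muscle of set 1, and 2.32% ± 0.90, 0.81% ± 0.50 and 0.62% ± 0.34 in basal, immobilized and denervated muscle of set 2. Psmb10 was 2.97% ± 0.60 and 3.48% ± 0.25 of Psmb7 in basal and immobilized muscle of set 1, a difference within the spread of the basal libraries, and 4.28% ± 0.32, 2.76% ± 0.63 and 1.72% ± 0.53 in basal, immobilized and denervated muscle of set 2. In Sesn1KO muscle these values went from 3.45% ± 0.72 to 1.40% ± 0.62 for Psmb8, from 1.67% ± 0.28 to 0.64% ± 0.08 for Psmb9 and from 4.26% ± 0.32 to 2.46% ± 0.51 for Psmb10. The percentages depend on the length used: over the union of exons, in basal WT muscle of set 2, they were 2.26% for Psmb8, 2.01% for Psmb9 and 9.71% for Psmb10.

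**Figure D3:**
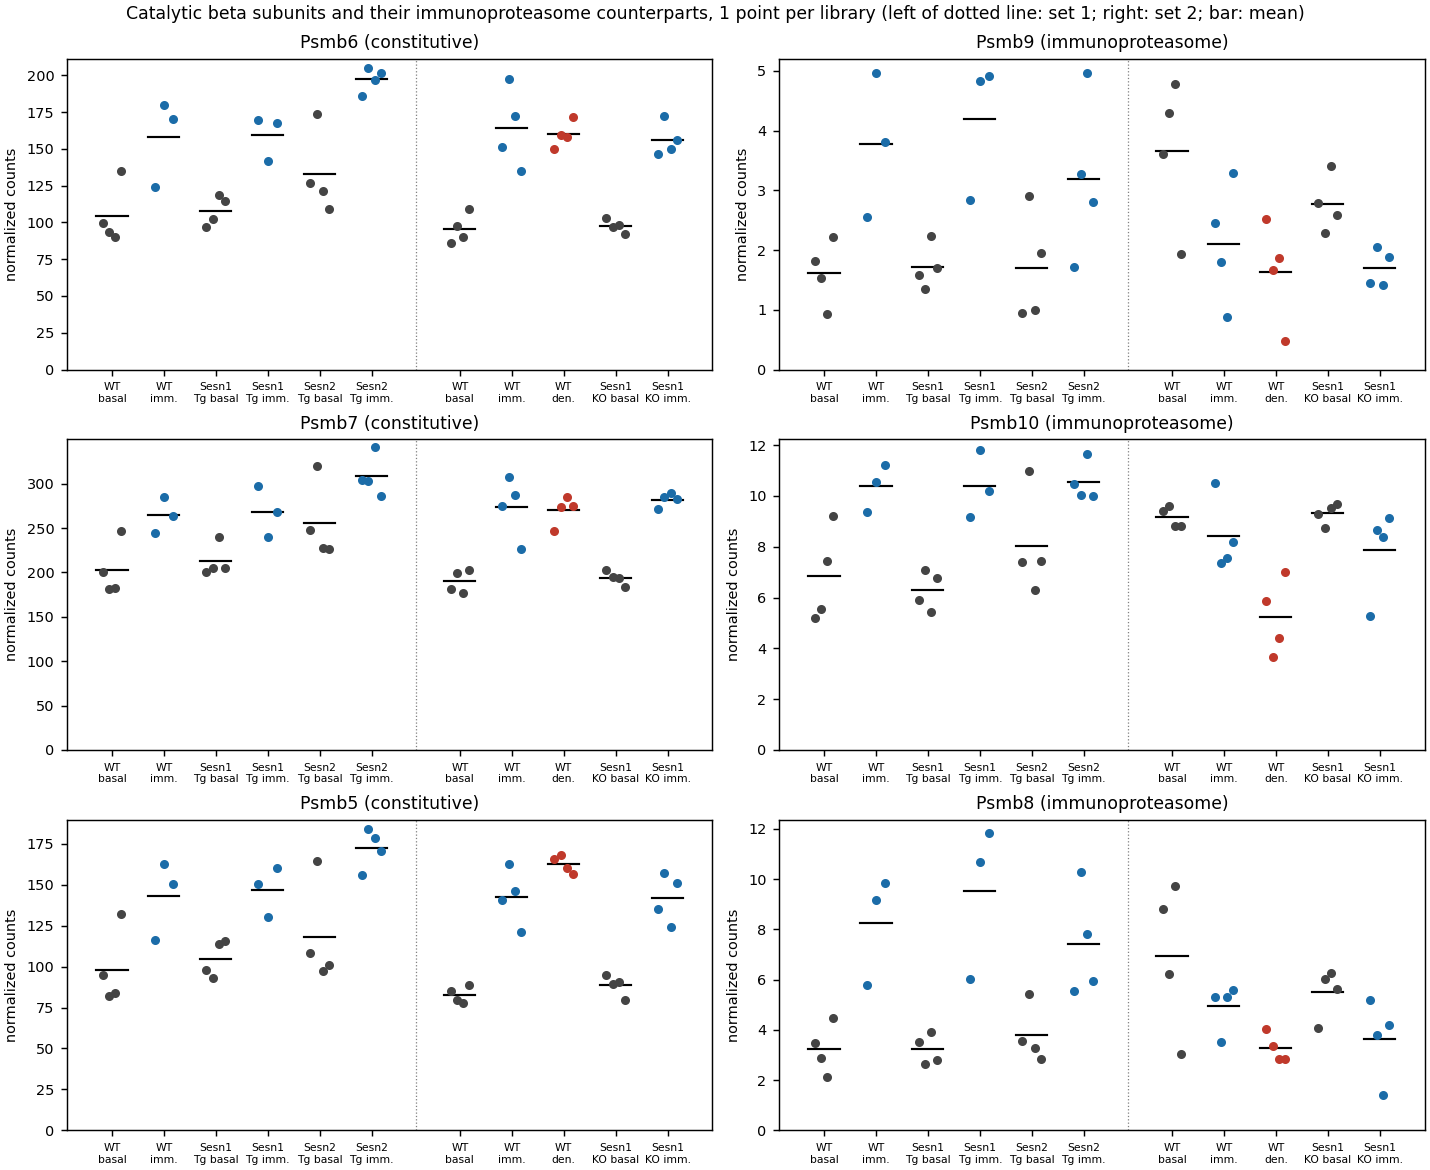
Normalized counts (vertical axes, linear from 0) of Psmb5, Psmb6 and Psmb7 and of Psmb8, Psmb9 and Psmb10 in each library (points), by group, with bars at the group mean and set 1 left of the dotted line. Basal libraries are dark grey, immobilized blue and denervated red. Psmb5 is 157 to 168 in denervated muscle against 77.9 to 88.8 in basal WT muscle of set 2, while Psmb10 is 3.66 to 6.99 against 8.80 to 9.61.

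The difference between the sets in the response to immobilization of WT muscle was tested over all 42 libraries. Of the 41 members, 2 differed (6.2% of all genes called, 3.04% lower in set 2): Psmb8 by -1.47 ± 0.39 (95% interval -2.23 to -0.71, adjusted p = 0.0176) and Psmb9 by -1.46 ± 0.39 (-2.23 to -0.69, adjusted p = 0.0194). Psmb10 differed by -0.69 ± 0.24 (-1.16 to -0.21, adjusted p = 0.0812), short of the threshold. No constitutive subunit was called, and their median difference was 0.17, with 27 of 31 above 0. The count of 2 became 0 without replicate 3 of the immobilized WT libraries of set 1 or without replicate 3 of the basal WT libraries of set 2, 1 without replicate 2 of immobilized WT muscle of set 1 or replicate 3 of immobilized WT muscle of set 2, and 5 without replicate 4 of basal WT muscle of set 1, when Psmb10, Psme1 and Psme4 were called as well. The labels say that the sequencing was done in these sets, so the response of the muscle and whatever else differed with the set cannot be told apart. The values of the sets also look adjusted to each other gene by gene, an impression that was not tested.

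Leukocyte markers were counted in the same comparisons. Their direction was that of the immunoproteasome genes in set 1, but not throughout set 2. Of the 10 leukocyte markers in the table, all 10 rose after immobilization in WT muscle of set 1 (median 2.13) and in Sesn1SkM-Tg muscle (2.34), 4 in Sesn2SkM-Tg muscle (0.84), 4 in WT muscle of set 2 (0.95) and 2 in Sesn1KO muscle (0.67). After denervation 1 rose and 2 fell (median -0.26). The summed level of these markers went from 74.9 to 106 in basal to 249 to 569 in immobilized WT muscle of set 1, and was 65.6 to 287 in basal, 165 to 342 in immobilized and 66.2 to 201 in denervated WT muscle of set 2, with none of the markers listed at 0. All 4 endothelial markers fell in WT muscle of set 2 after immobilization and after denervation, where they summed to 227 to 291 in basal, 124 to 201 in immobilized and 113 to 147 in denervated muscle, and 2 of 4 fell in Sesn1KO muscle. In set 1, 2 rose and 1 fell in immobilized WT muscle, and 3 rose and 0 fell in Sesn1SkM-Tg and in Sesn2SkM-Tg muscle. The part of these cells in the immunoproteasome values was not tested.

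The 11 genes of the interferon-gamma response and MHC class I presentation, listed as a comparison, gave 7 that rose after immobilization in WT muscle of set 1 (median 0.66), 9 in Sesn1SkM-Tg muscle (0.79) and 8 in Sesn2SkM-Tg muscle (0.75), and none fell there. In set 2, 2 fell and 0 rose in immobilized WT muscle (median -0.08), 1 rose and 1 fell in Sesn1KO muscle, and 3 fell after denervation (median -0.39). Among these were the transcription factor Irf1 (-0.98) and the GTPase Gbp2 (-0.73), while Tap1, the neighbour of Psmb9, was -0.57 (adjusted p = 0.12). In immobilized WT muscle of set 1, Tap1 rose by 0.66 on the log2 scale.

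The 4 activators differed in direction. Psme1 (PA28 alpha, chr14:55578123-55581529, plus strand) was 37.1, 36.5, 35.3 and 34.7 in basal, 26.0, 22.5, 22.3 and 23.7 in immobilized and 18.5, 17.2, 16.6 and 18.2 in denervated WT muscle of set 2. The 3 groups did not overlap in either step, with log2 changes of -0.59 ± 0.09 after immobilization (adjusted p = 6.8e-05) and -0.99 ± 0.09 after denervation (adjusted p = 1.89e-08), and the latter remained at -0.54 (adjusted p = 0.000178) with libraries rescaled to an equal sum. In Sesn1KO muscle it was 35.7, 32.9, 41.4 and 35.0 in basal and 21.3, 19.6, 20.5 and 26.0 in immobilized muscle (-0.71 ± 0.09, adjusted p = 5.46e-06). In WT muscle of set 1 it was 24.4, 24.9, 23.8 and 53.4 in basal and 21.1, 31.2 and 26.0 in immobilized muscle (-0.20 ± 0.24, adjusted p = 0.56), and the difference was 0.08 without basal replicate 4, which holds the highest value.

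Psme2 (PA28 beta), the partner of Psme1 in the 11S cap, did not pass the test in set 2 WT muscle. Its values in set 2 were 15.3, 20.7, 19.3 and 16.6 in basal, 22.5, 20.8, 19.8 and 21.2 in immobilized and 19.8, 17.5, 23.1 and 18.5 in denervated WT muscle, 3 groups that overlap (0.22 ± 0.13, adjusted p = 0.211, and 0.13 ± 0.13, adjusted p = 0.434). In WT muscle of set 1 it was 16.3, 14.3, 13.5 and 19.3 in basal and 19.7, 25.5 and 25.9 in immobilized muscle, where no immobilized library lay in the basal range (0.55 ± 0.14, adjusted p = 0.00702), a call lost without immobilized replicate 3 (adjusted p = 0.0512). It rose also in immobilized Sesn1SkM-Tg (0.59 ± 0.14, adjusted p = 0.00367) and Sesn1KO muscle (0.52 ± 0.13, adjusted p = 0.00399). Per kb, Psme1 was 175% ± 25.8 of Psme2 in basal, 96.9% ± 2.71 in immobilized and 78.3% ± 10.9 in denervated WT muscle of set 2 (SD, n = 4). In set 1 this ratio was 168% ± 48.6 in basal (n = 4) and 95.04% ± 9.76 in immobilized WT muscle (n = 3).

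Psme3, the nuclear cap also called PA28 gamma, was 56.9, 48.8, 47.2 and 48.5 in basal, 56.7, 62.7, 65.7 and 61.8 in immobilized and 71.5, 83.1, 75.95 and 80.1 in denervated WT muscle of set 2. Denervated libraries lay above all others, and the log2 changes were 0.29 ± 0.08 (adjusted p = 0.00712) and 0.62 ± 0.08 (adjusted p = 1.18e-06). In set 1 it was 52.5, 53.5, 55.4 and 73.0 in basal and 65.5, 52.1 and 53.1 in immobilized WT muscle (-0.04 ± 0.13, adjusted p = 0.858). Psme4 (PA200) was 327, 324, 288 and 333 in basal, 469, 536, 496 and 424 in immobilized and 327, 372, 501 and 444 in denervated muscle of set 2. It rose in immobilized WT (0.59 ± 0.11, adjusted p = 0.000418) and Sesn1KO muscle (0.73 ± 0.11, adjusted p = 3.6e-05) without overlap with basal muscle, and after denervation by 0.35 ± 0.11 (adjusted p = 0.0127), a call lost without denervated replicate 3 (adjusted p = 0.0672). In WT muscle of set 1 it was 638, 551, 500.3 and 167 in basal and 482, 349.9 and 375 in immobilized muscle, a log2 fold change of -0.06 ± 0.31 (adjusted p = 0.911) that was -0.49 without basal replicate 4.

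**Figure D4:**
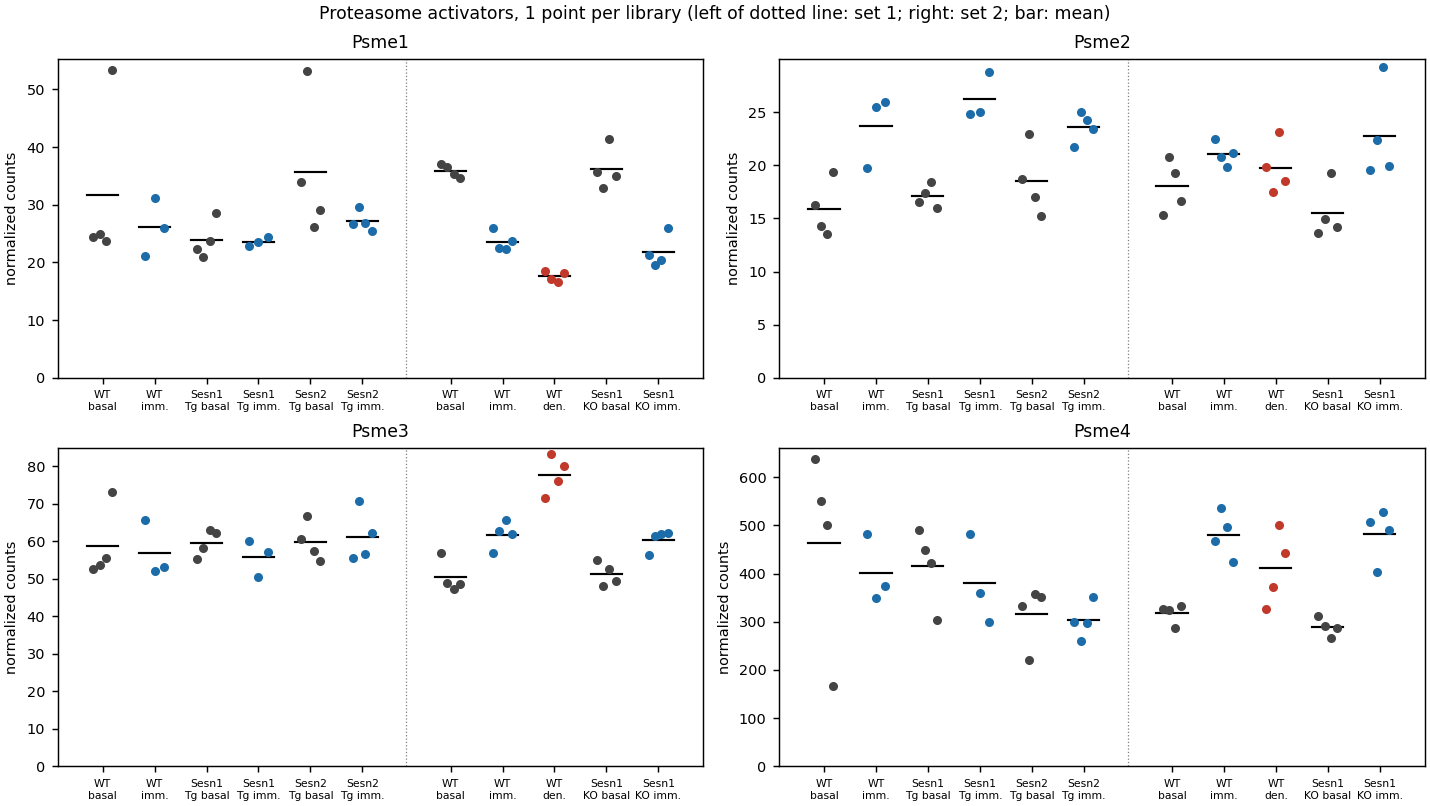
Normalized counts (vertical axes, linear from 0) of the activators Psme1, Psme2, Psme3 and Psme4 in each library (points), by group, with bars at the group mean and set 1 left of the dotted line. Basal libraries are dark grey, immobilized blue and denervated red. Psme1 steps down from 34.7 to 37.1 in basal through 22.3 to 26.0 in immobilized to 16.6 to 18.5 in denervated WT muscle of set 2, and replicate 4 of basal WT muscle in set 1 holds 53.4 of Psme1 and 167 of Psme4.

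The chaperones Psmd5, Psmd9 and Psmd10, which hold parts of the base during assembly and leave before the proteasome is complete, were called less evenly: of the 6 comparisons with basal muscle, Psmd5 rose in 4, Psmd10 in 1 and Psmd9 in 0. Psmd5 was 13.8, 15.6, 13.0 and 14.4 in basal, 17.9, 18.6, 21.2 and 19.2 in immobilized and 21.7, 22.9, 23.1 and 23.0 in denervated WT muscle of set 2. These groups did not overlap, and Psmd5 rose by 0.41 ± 0.10 (adjusted p = 0.00225) and 0.64 ± 0.10 (adjusted p = 8.67e-06). In set 1 it was 16.2, 14.5, 12.2 and 18.6 in basal and 21.3, 23.2 and 21.1 in immobilized WT muscle (0.50 ± 0.15, adjusted p = 0.0191), a call lost without basal replicate 3 or immobilized replicate 2 or 3 (adjusted p up to 0.0674). Psmd10, also named gankyrin, was 6.79, 8.24, 7.97 and 8.69 in basal, 9.01, 11.3, 9.15 and 9.96 in immobilized and 12.0, 14.5, 15.5 and 12.1 in denervated muscle of set 2. It rose after denervation (0.70 ± 0.13, adjusted p = 0.000133), with no library in the range of the other groups, and was 0.28 ± 0.13 after immobilization (adjusted p = 0.108). Psmd9 was 17.9, 20.3, 18.5 and 24.3 in basal, 18.1, 20.4, 19.7 and 19.2 in immobilized and 17.9, 18.2, 15.8 and 18.3 in denervated muscle, groups that overlap (-0.19 ± 0.12 after denervation, adjusted p = 0.207). Over the 6 comparisons its log2 fold changes lay between -0.24 and -0.06.

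Genes of the proteasome system that are not among the members chosen here were counted from 4 further lists. The members of the base and lid leave out Adrm1 and Shfm1, which are counted below with the proteins that bind the proteasome. Of 5 chaperones of 20S assembly in the table, 4 rose after denervation (median 0.45), namely Pomp (0.63), Psmg3 (0.63), Psmg4 (0.45) and Psmg2 (0.43), and Pomp, which guides beta ring assembly, was called higher in all 6 comparisons (0.44 to 0.63). After immobilization 2 rose in WT muscle of set 1, 1 in Sesn1SkM-Tg, 1 in Sesn2SkM-Tg, 1 in WT muscle of set 2 and 2 in Sesn1KO muscle. Of 15 proteins that bind the proteasome or shuttle substrates to it, 10 rose and 0 fell after denervation (median 0.47), with the largest changes in the thioredoxin-like Txnl1 (1.22), the ubiquitin receptor Adrm1 (1.21), the shuttle Rad23b (1.12) and the deubiquitinase Usp14 (1.08). In immobilized muscle 3 rose and 2 fell in WT muscle of set 1, 2 and 2 in Sesn1SkM-Tg, 7 and 2 in Sesn2SkM-Tg, 6 and 0 in WT muscle of set 2, and 6 and 0 in Sesn1KO muscle. Of 8 genes of ubiquitin, its E1 enzyme and the p97 complex, 5 rose after denervation (median 0.65), among them Nploc4 (1.25), Rps27a (1.01), Ufd1l (0.86) and the p97 gene Vcp (0.73). The numbers after immobilization were 3 higher and 1 lower in WT muscle of set 1, 2 and 1 in Sesn1SkM-Tg, 5 and 0 in Sesn2SkM-Tg, 5 and 0 in WT muscle of set 2, and 6 and 0 in Sesn1KO muscle.

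Among 9 regulators of proteasome genes and of their processing, 4 rose after denervation (median 0.46), led by the small Maf gene Mafk (1.62) and by Nfe2l2 (1.21), followed by Bach1 (0.51) and Mafg (0.46). Nfe2l1 itself was 0.07 after denervation (adjusted p = 0.63), but rose by 0.84 in immobilized WT muscle of set 2. There all 9 regulators rose after immobilization (median 0.63), as did 8 in Sesn1KO muscle (0.76). In set 1, 0 were called in WT (median 0.27) and in Sesn1SkM-Tg muscle (0.13) and 3 rose in Sesn2SkM-Tg muscle (0.29). In the test of the difference between the sets in WT muscle, 1 of the 9 was called, Mafk (1.06, adjusted p = 0.0276). Nfe2l1 activity depends on cleavage and nuclear entry of the protein, which RNA levels do not measure.

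Few differences between genotypes were called in these genes. No member was called between Sesn1SkM-Tg and WT muscle in the basal state (0.0292% of all genes called) or after immobilization (0.0073%). At an unadjusted p under 0.05 the count was 0 in both, beside 497 and 417 of all 13705 genes. Between Sesn1KO and WT muscle of set 2, 0 members were called in the basal state (0.147% of all genes, 0.0587% higher and 0.088% lower) and 0 after immobilization (0.947%). There were 0 and 1 members at an unadjusted p under 0.05, beside 632 and 1917 of all 13629 genes. The constitutive subunits had median differences of 0.09 and -0.02 in Sesn1SkM-Tg muscle, basal and immobilized, and of 0.04 and -0.02 in Sesn1KO muscle. Over the 41 members the differences lay between -0.31 (Psme1) and 0.26 (Psmb4) in basal Sesn1SkM-Tg muscle, between -0.27 (Psmb9) and 0.18 (Psmd9) in basal Sesn1KO muscle and between -0.42 (Psmb8) and 0.27 (Psmd11) in immobilized Sesn1KO muscle.

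In Sesn2SkM-Tg muscle the constitutive subunits were slightly higher than in WT muscle in both states, with medians of 0.24 in basal (29 of 31 above 0) and 0.23 in immobilized muscle (31 of 31 above 0, from 0.03 for Psmd6 to 0.58 for Psmd3). In the basal state 0 members were called (2.5% of all genes, 1.5% higher and 1.0% lower). At an unadjusted p under 0.05 there were 12, beside 2136 of all 13705 genes. After immobilization 1 was called (2.94% of all genes, 1.65% higher and 1.29% lower), the lid subunit Psmd3. Here 12 members had an unadjusted p under 0.05, beside 2637 of all 13705 genes. Psmd3 was 157, 194 and 186 in immobilized WT and 217, 347, 234 and 289 in immobilized Sesn2SkM-Tg muscle. All 4 transgenic libraries lay above the 3 WT libraries, and the log2 difference was 0.58 ± 0.15 (adjusted p = 0.0384), called in 2 of 7 fits that left out a library, those without Sesn2SkM-Tg replicate 1 or 3. For 15 members, all constitutive, no immobilized Sesn2SkM-Tg library lay in the WT range (11.5% of all genes). Without replicate 4 of basal WT muscle of set 1, 5 members were called in the basal state, Psma7 (0.56), Psmb3 (0.50), Psmb4 (0.58) and Psmb7 (0.42) higher and Psme4 (-0.85) lower in Sesn2SkM-Tg muscle. The 2.5% above belongs to the fit of all libraries, so this count of 5 has no share of all genes beside it.

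**Figure D5:**
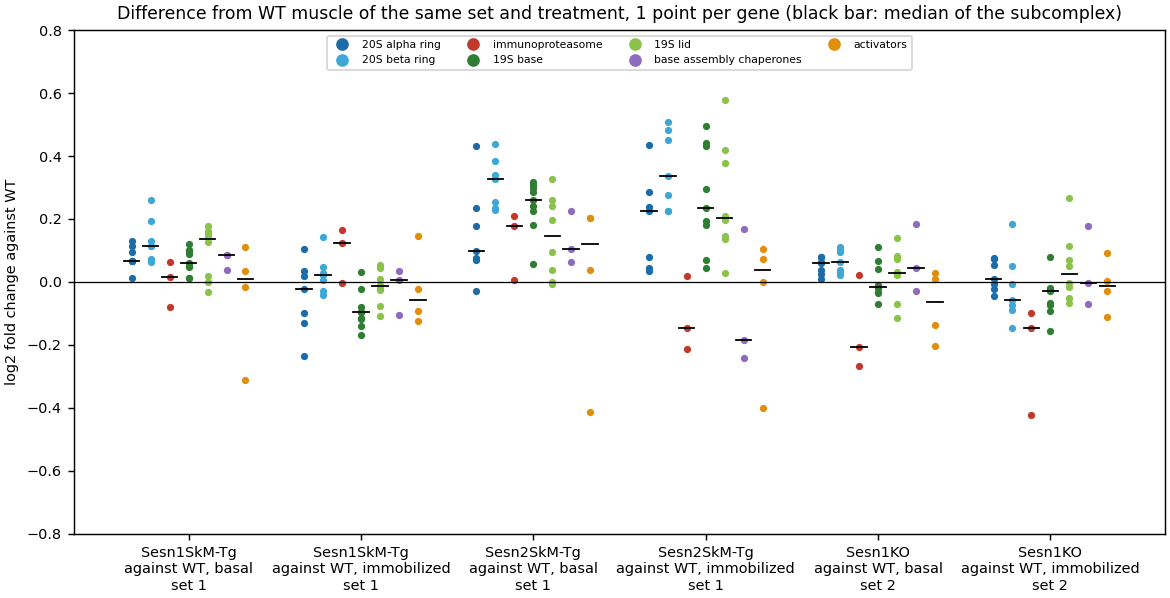
Log2 difference of value + 1 (vertical axis) of each of the 41 members (points, coloured by subcomplex) between each genotype and WT muscle of the same set and state, with black bars at the median of a subcomplex. The highest point is Psmd3 in immobilized Sesn2SkM-Tg muscle (0.58), the only call, and the 31 constitutive subunits of that comparison all lie above 0.

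The difference between genotypes in the response to immobilization was tested with an interaction term, and 0 of the 41 members were called for Sesn1SkM-Tg (0.0% of all genes called), Sesn2SkM-Tg (0.0073%) or Sesn1KO muscle (0.022%, of which 0.0147% higher). For Psmb8 the difference from WT was 0.15 (95% interval -0.54 to 0.84) in Sesn1SkM-Tg, -0.32 (-0.99 to 0.34) in Sesn2SkM-Tg and -0.21 (-0.98 to 0.55) in Sesn1KO muscle, intervals that leave room for differences in either direction. Of the 31 constitutive subunits, 1, Psma6, had a difference above 0 in Sesn1SkM-Tg muscle (median -0.12, beside 0.00 for all genes), 19 in Sesn2SkM-Tg (0.02 beside -0.01) and 12 in Sesn1KO muscle (-0.03 beside -0.02). At an unadjusted p under 0.05 there were 0 of the 31 in each, beside 401 and 1008 of all 13705 genes and 1087 of all 13629.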

How the data were processed

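TA muscle RNA was sequenced in 42 libraries. The authors trimmed reads with cutadapt 1.7.1, quantified them against the GRCm38 transcriptome with RSEM 1.2.20 and normalized them with limma and edgeR, per their processing notes. The deposited signal values are the authors' normalized counts, linear and close in scale to CPM. How the sets were combined is not given in the sources used here, so levels were compared within a set. Depth is unknown, and whole reads were not recovered.

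Models were fitted with limma 3.58.1 (R 4.3.3) to log2(value + 1), 1 coefficient per group and moderated variances with a trend (eBayes), after removal of genes below 1 in every library of a set. This left 13705 genes in set 1, 13629 in set 2 and 13763 over both. P-values are two-sided and were Benjamini-Hochberg adjusted over all these genes. The script was tested on simulated data, with 13505 genes left unchanged in set 1 and 13429 in set 2. In set 1 it called 12 of 100 genes given a log2 change of 0.5 and 66 of 100 given a change of 1. In set 2 it called 41 and 89 of 100. Many more genes were called in the comparisons of treated with basal muscle, so these rates do not carry over to them. Small differences can still go without a call. Positions and lengths came from the GRCm38 annotation, and promoters from RefSeq (GRCm38.p6). Exons of Psmb7, Psmb9, Psmc3, Psmd1, Psmd13 and Psme1 overlap those of other genes in the table.

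All members may be named. Values of every library are printed for the immunoproteasome genes. Those of WT muscle are printed for the catalytic and activator genes and, for set 2, for the largest change in each other subcomplex, and other genes come from fixed lists, at most 4 per list by their change after denervation (Nfe2l1, Tap1 and the rest of the report's exceptions were chosen after their values were seen). The members and lists were chosen with earlier results of these data known. Further marker lists gave, after denervation, 2 of 4 fibroblast, 3 of 3 adipocyte and 1 of 3 Schwann cell and nerve markers lower, 1 of 3 satellite cell markers higher and 0 of 3 erythrocyte markers called. A gene of the interferon-gamma list enters its counts and medians, while its own values are not reported here.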

Additional observations from a re-analysis of the deposited data

Results flagged for a closer look

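Some libraries lay far from the others of their group of 4, by the gap to the nearest library as a share of the range (Dixon's criterion). This was so for 19 of 252 sets of libraries examined, where chance gives about 1 in 20. In replicate 4 of basal WT muscle of set 1, Psme1 was 53.4 (others 23.8 to 24.9), Psme3 was 73.0 (52.5 to 55.4), Psmd9 was 29.3 (16.8 to 18.5) and the median log2 value of the activators was 5.99 (5.20 to 5.23). In replicate 3 of basal Sesn1SkM-Tg muscle, Psmb7 was 239.6 (200.0 to 205), Psmb4 was 134 (105 to 109) and the median log2 value of the 19S base was 7.11 (6.91 to 6.93). In replicate 2 of basal Sesn2SkM-Tg muscle, Psmb5 was 164 (97.4 to 108), Psmd9 was 29.98 (21.6 to 22.1) and Psmc4 was 110.5 (76.2 to 80.8).

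In set 2, replicate 2 of immobilized WT muscle was low for Psmb8 at 3.51 (5.31 to 5.59), for the median log2 value of the immunoproteasome at 2.17 (2.66 to 2.72) and for that of the activators at 5.27 (5.30 to 5.30). Psme3 was 56.9 in replicate 1 of basal WT muscle (47.2 to 48.8). Psmd5 was 21.7 in replicate 1 of denervated muscle (22.9 to 23.1), and in replicate 3 Psmd9 was 15.8 (17.9 to 18.3) and the median log2 value of the base chaperones was 4.07 (4.24 to 4.27). In replicate 1 of immobilized Sesn1KO muscle, Psme3 was 56.3 (61.4 to 62.1) and Psmd9 was 14.8 (20.9 to 21.2).

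The response of WT muscle to immobilization differed between the sets for Psmb8, by -1.47 on the log2 scale (adjusted p = 0.0176, limma), and for Psmb9, by -1.46 (adjusted p = 0.0194). In set 1 all 3 immobilized libraries lay above all 4 basal ones for both genes, and in set 2 the groups overlapped.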

How the results depend on the processing

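Alternatives other than leaving out 1 library were filters, pseudocounts, scalings, tests, thresholds and fits of only the compared groups. Under these, 7550 member values kept their side of the threshold, 60 newly passed it, 53 no longer did and 4 reversed. A reversal here is a change of sign in a member called in either fit. Changes of sign in members called in neither are counted among the 7550. The reversals, in denervated against immobilized WT muscle with libraries rescaled to an equal sum, were Psma7 (0.33), Psmb6 (0.31), Psmb7 (0.33) and Psmd6 (0.34). In that comparison, 8 members were called, and 17 with quantile normalization, 30 with libraries rescaled and 1 with a threshold of 0.5 on the size of the log2 fold change. The rescaling moved the median of all genes to 0.26 there, and to 0.28 in immobilized WT muscle of set 1. The shares of all genes called are not given beside the 17 and the 30. The single call between immobilized Sesn2SkM-Tg and WT muscle became 0 with quantile normalization, rescaling, median centring, eBayes without trend, only the compared groups or a replicate block.

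With 1 library left out at a time, the number of members called ranged from 26 to 36 in immobilized WT muscle of set 1, 26 to 33 in Sesn1SkM-Tg, 29 to 35 in Sesn2SkM-Tg, 35 to 36 in WT muscle of set 2, 35 to 36 in Sesn1KO and 38 to 39 in denervated muscle. It ranged from 7 to 13 between denervated and immobilized muscle, 0 to 5 between Sesn2SkM-Tg and WT in the basal state, 0 to 1 after immobilization, and 0 to 5 between the sets. The remaining genotype comparisons stayed at 0. The share of all genes called in each of these fits is not given beside the ranges.

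Replicate numbers were not used to pair the samples. Of 91 pairs with the same number, 24 had deviations that correlated above 0.1 (range -0.45 to 0.53). Pairs with different numbers were not correlated beside them, so whether the numbers pair the samples was not tested. With the number as a block, 39 members were called after denervation, as without it. The unknown depth leaves the precision of the low immunoproteasome values to the spread between libraries.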
